A study of Homo sapiens with 12 samples.

Results

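The expression of 7 genes of plasminogen activation and of related serpins was examined in RNA-seq libraries of 3 established human prostate cell lines. The genes were taken from the table by symbol and were PLAU, PLAT, PLAUR, SERPINE2, SERPINB2, SERPINB5 and SERPINB8. All 7 were found among 58302 genes, each with 1 row, and all 7 passed the filter on low read numbers in every comparison. BPH-1 is an immortalised line from benign prostatic hyperplasia, and DU145 and PC3 are lines from metastases of prostate cancer (PCa). SERPINB2 and SERPINB5, with at most 6 reads in any DU145 library, passed the filter in the DU145 comparisons only through the other line. Each line had 4 libraries, was labelled wild type and was grown in the same serum-containing medium. The labels named no transgene or treatment, which does not describe how a line was immortalised. Each line is 1 established culture, so a difference between lines is not a difference between benign and malignant tissue in general. No label said whether the 4 libraries of a line came from separate cultures, so the P values measure only the spread between these libraries.

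Plasminogen is a circulating zymogen that is cut to plasmin, a broad protease that dissolves fibrin and degrades matrix. The cut is made by urokinase, encoded by PLAU, or by tissue plasminogen activator, encoded by PLAT. Urokinase acts at the cell surface when it is bound to its receptor, encoded by PLAUR. Serpins are suicide inhibitors that trap a protease in a covalent complex. Protease nexin 1 (SERPINE2) inhibits thrombin and both activators, and plasminogen activator inhibitor 2 (SERPINB2) inhibits the activators. Maspin (SERPINB5) belongs to the same clade as SERPINB2, is typical of basal epithelial cells and does not act as a classical protease inhibitor. SERPINB8 is an intracellular serpin that inhibits furin.

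Epithelial keratins were present in all 3 lines, with KRT8 between 14.7 and 41.7 FPKM and KRT18 between 26.8 and 99.2 FPKM over the 12 libraries. FPKM, fragments scaled by gene length and by depth, were used as deposited, and the depth was between 12950665 and 16309559 reads a library. The basal markers KRT5, KRT14 and TP63 were high in BPH-1 (KRT5 between 120 and 175 FPKM) and at most 0.50 FPKM in any library of the other lines. The basal marker KRT15 was between 0.51 and 2.17 FPKM in BPH-1, 0.17 and 0.44 in DU145 and 1.08 and 2.42 in PC3. KLK3 was listed at 0 in every library. EPCAM was between 57.7 and 63.2 FPKM in BPH-1, between 6.92 and 11.1 in PC3 and between 0.17 and 0.57 in DU145. CDH1 was between 16.3 and 44.6 FPKM in BPH-1, 0.43 and 1.42 in PC3 and at most 0.30 in DU145. Of 5 leukocyte markers, PTPRC and LYZ were present in all BPH-1 libraries (LYZ between 7.61 and 10.1 FPKM) and in DU145 replicates 1 and 2 (LYZ between 7.76 and 8.63 FPKM). LYZ was at 0 in DU145 replicates 3 and 4 and at most 0.17 FPKM in PC3, and CD3E was at 0 in all libraries. CD68 was between 3.43 and 6.57 FPKM in BPH-1, 3.83 and 9.95 in DU145 and 6.86 and 13.5 in PC3, a different pattern from that of PTPRC and LYZ. Summed fibroblast and endothelial markers reached at most 3.98 and 3.57 FPKM. A search made after these values were seen found 22 genes, FCGR3B, MNDA and FPR1 among them, at 0.5 FPKM or more in those 6 libraries and below 0.1 of their lowest level there in the other 6. The opposite pattern held for 2 genes. These transcripts cannot be told apart from the line in PC3 against BPH-1, and DU145 was therefore also compared with pairs of its libraries left out. DU145 replicates 1 and 3 also stood apart from 2 and 4. In the latter pair 882 protein-coding genes were higher than in the former by more than 2 times plus 1 FPKM, against 11 in the opposite direction.

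The consensus TGANTCA of the transcription factor AP-1 was searched on both strands of the 250 bases before the RefSeq start (GRCh38.p14) of the members. The 8 windows read for 6 members are described here because PLAU, PLAUR and SERPINB2 are known AP-1 targets. No window of PLAT was read. The consensus reads the same on both strands. It was found in 4 of the 8 windows, each of a different member, and in 6.57% of all 35116 promoter windows of that length. Because known AP-1 targets are among the members, these shares are a description, and enrichment was not tested. No match was found in the windows of PLAU and SERPINE2, which says only that these letters are not there. The matches are in capitals with 10 bases on each side, and the position is that of the first capital counted back from the start. The matches of PLAUR, SERPINB5 and the second of SERPINB8 lie in exons that GENCODE annotates for longer transcripts.
PLAUR, position -186, chr19:43670339-43670365, minus strand: cacaactccaTGAGTCAgggccgagcc
SERPINB5, position -146, chr18:63476802-63476828, plus strand: aacttcagccTGAATCAtttctttcaa
SERPINB8, position -185, chr18:63969886-63969912, plus strand: gagtcaaacgTGAATCAacggtgaaaa
SERPINB8, position -28, chr18:63970043-63970069, plus strand: cgaacggttcTGAGTCAtctgccggaa
The upstream window of SERPINB2, one of the 2 members that were near 0 in DU145, is given up to its annotated exon. It holds the AP-1 consensus at position -102 and a TATA box (TATAAA, found on either strand in 10.7% of the windows), both in capitals, and no CpG. The window of SERPINB5, the other member near 0 in DU145, held no TATA box and 13 CpG. That of SERPINB8, which was not near 0, held 2 TATA matches.
SERPINB2, chr18:63887455-63887699, plus strand: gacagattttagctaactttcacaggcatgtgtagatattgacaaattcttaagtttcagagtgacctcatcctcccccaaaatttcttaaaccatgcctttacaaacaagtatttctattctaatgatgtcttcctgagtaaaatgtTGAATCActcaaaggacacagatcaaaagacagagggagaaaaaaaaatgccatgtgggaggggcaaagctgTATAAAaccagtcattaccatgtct

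PLAU had the highest level of the 7 genes in every line, and its FPKM range did not overlap that of any other member. In BPH-1 it was followed by SERPINB5, SERPINB2 and SERPINE2, of which SERPINB5 and SERPINB2 overlapped, as did SERPINB2 and SERPINE2. PLAUR came next, and SERPINB8 and PLAT were lowest and overlapped. In DU145 the order after PLAU was PLAUR, SERPINE2, SERPINB8, PLAT, SERPINB2 and SERPINB5, with overlap between PLAUR and SERPINE2, between SERPINB8 and PLAT, and between the last 2 genes. In PC3 the order was PLAU, PLAT, SERPINB5, PLAUR, SERPINE2, SERPINB8 and SERPINB2, and SERPINB5, PLAUR and SERPINE2 overlapped in turn, as did SERPINB8 and SERPINB2. The gene lengths behind these FPKM were the sum of all distinct exons, between 1.2 (SERPINB5) and 1.93 (PLAUR) times the merged exon length. Per merged length the order was unchanged in BPH-1 and DU145, and PLAUR passed SERPINB5 in PC3.

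**Figure D1:**
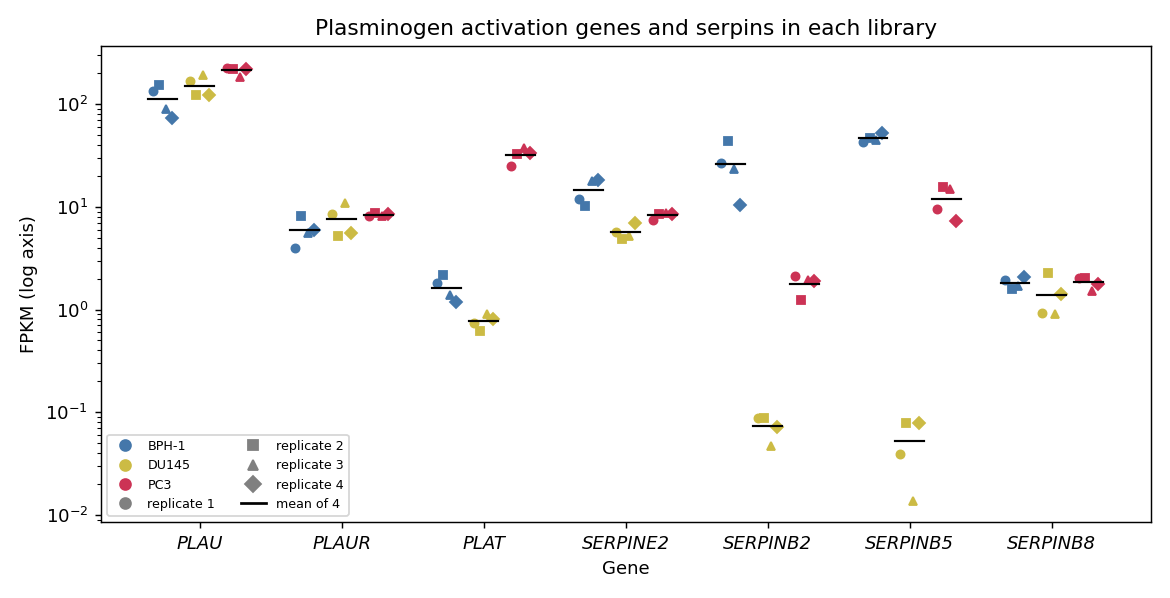
FPKM (log axis) of the 7 genes in each of the 12 libraries, with BPH-1 in blue, DU145 in yellow and PC3 in red, a symbol for each replicate number and a bar at the mean of 4 libraries. PLAU lies at 73.8 FPKM or more in every library, PLAT stands out in PC3, and SERPINB2 and SERPINB5 lie below 0.1 FPKM in DU145 only.

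Urokinase expression was high throughout and highest in PC3. PLAU (ENSG00000122861, chr10:73909177-73917497, plus strand) was at 134, 152, 90.2 and 73.8 FPKM in BPH-1, at 167, 124, 194 and 123 in DU145, and at 227, 219, 186 and 221 in PC3. All 4 PC3 libraries lay above all BPH-1 libraries, and DU145 replicate 3 overlapped PC3. The mean was 113 ± 36.7 FPKM in BPH-1, 152 ± 34.7 in DU145 and 213 ± 18.8 in PC3 (SD, n = 4), which ranked PLAU 110, 91 and 66 among 19817 protein-coding genes. On the log2(FPKM + 1) scale PLAU was 0.97 ± 0.21 (SE) higher in PC3 than in BPH-1 (limma, adjusted P = 0.00284; exact permutation P = 0.0286, the smallest that 4 against 4 allows). The transcripts of PLAU, PLAUR and PLAT had a GC content of 54.0%, 55.9% and 53.6%, against 42.6% to 46.0% for the 4 serpins. Dividing out each library's GC trend reduced the PLAU difference to 0.53 (limma, adjusted P = 0.0537). In bulk RNA, fewer expressing cells and less RNA per cell cannot be told apart. PC3 exceeded DU145 by 0.51 ± 0.18 (limma, adjusted P = 0.0389), a call kept in 8 of 21 alternatives and lost without DU145 replicate 1, 2 or 4 or PC3 replicate 1, 2 or 4 (adjusted P between 0.0524 and 0.0967).

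The second activator set PC3 apart from both other lines. PLAT (ENSG00000104368, chr8:42175233-42207724, minus strand) was at 1.83, 2.15, 1.38 and 1.18 FPKM in BPH-1, at 0.74, 0.62, 0.91 and 0.81 in DU145, and at 25.1, 33.0, 37.8 and 33.3 in PC3. The ranges of the 3 lines did not overlap. The PC3 mean of 32.3 ± 5.29 FPKM was 19.8 times the BPH-1 mean of 1.63 ± 0.44 and 41.9 times the DU145 mean of 0.77 ± 0.12 (SD, n = 4). The log2 difference was 3.66 ± 0.16 (SE) against BPH-1 and 4.22 ± 0.16 against DU145 (limma, adjusted P = 1.36e-07 and 1.55e-07), and every alternative kept both. With the GC trend divided out these differences were 3.22 and 3.93. DU145 fell by 0.56 on the log2 scale below BPH-1 (SE 0.14; limma, adjusted P = 0.00561). Without DU145 replicates 1 and 2, which carried the leukocyte transcripts, this was -0.489 with adjusted P = 0.0612. Without replicates 3 and 4 it was -0.632 (limma, adjusted P = 0.0220), and 20 of 21 alternatives kept the call.

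The receptor differed little between the lines. PLAUR (ENSG00000011422, chr19:43646095-43670547, minus strand) was at 3.98, 8.23, 5.53 and 5.99 FPKM in BPH-1, at 8.57, 5.23, 11.0 and 5.54 in DU145, and at 8.12, 8.80, 8.14 and 8.59 in PC3. The PC3 libraries were close together and lay within the range of DU145, and BPH-1 replicate 2 reached into PC3. The means were 5.93 ± 1.76, 7.57 ± 2.71 and 8.41 ± 0.34 FPKM (SD, n = 4). PC3 exceeded BPH-1 by 0.48 ± 0.17 (SE) on the log2 scale (limma, adjusted P = 0.0338; exact permutation P = 0.0857). That call was lost in 11 of 17 alternatives, among them leaving out BPH-1 replicate 1, 3 or 4 or any 1 PC3 library (adjusted P between 0.0555 and 0.0783). The difference was 0.24 after rescaling to equal FPKM sums and 0.05 after dividing out the GC trend. PLAUR is also expressed by leukocytes, whose part in these values was not tested. In DU145 both PLAUR and PLAU were higher in replicates 1 and 3 than in 2 and 4. The split over many genes mostly went the other way, with 882 protein-coding genes higher in 2 and 4 against 11 in 1 and 3, as given above. Without DU145 replicates 2 and 4 PLAUR was 0.66 higher in DU145 than in BPH-1 (limma, adjusted P = 0.0409), and without 1 and 3 the difference was -0.085 (adjusted P = 0.769). Against PC3, these pairs gave differences of -0.19 and 0.56 (PC3 minus DU145; adjusted P = 0.260 and 0.00590).

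**Figure D2:**
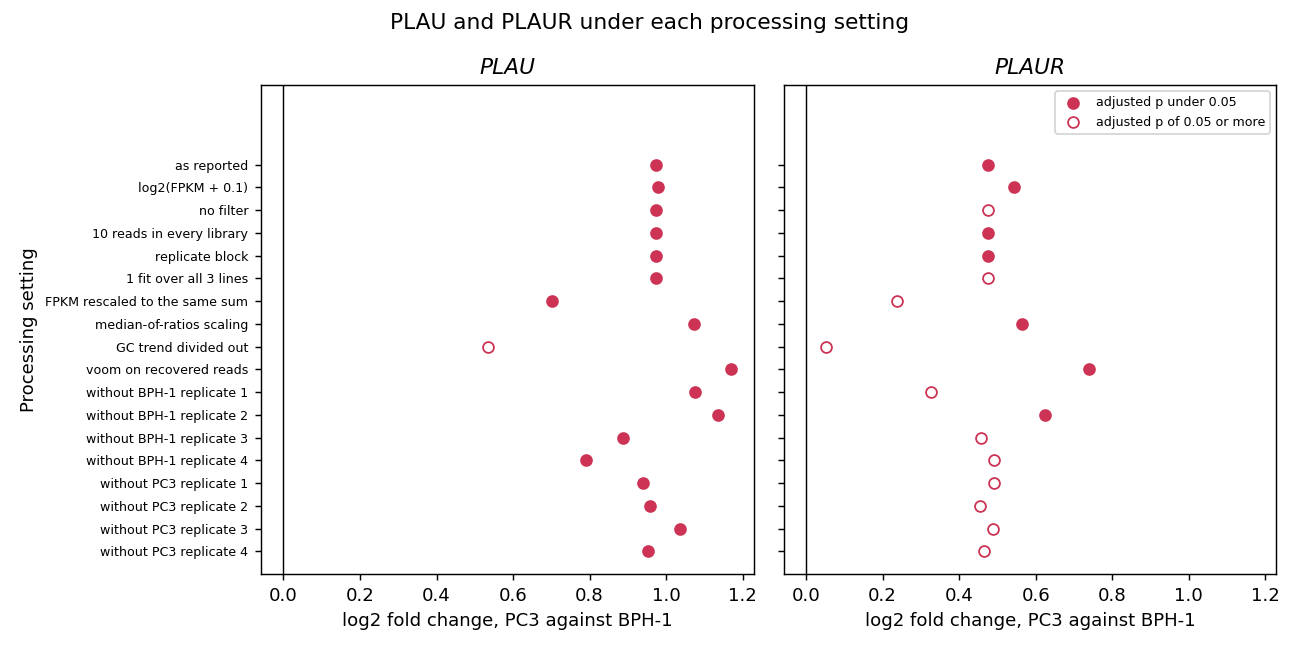
Log2 fold change of PLAU (left) and PLAUR (right) in PC3 against BPH-1 under the reported processing and each alternative, with filled circles where the limma adjusted P was under 0.05 and open circles where it was not. PLAU loses the call only when the GC trend is divided out (0.53), whereas PLAUR runs from 0.05 to 0.74 and keeps the call in 6 of 17 alternatives.

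SERPINE2, the inhibitor of both activators, was lower in both PCa lines. SERPINE2 (ENSG00000135919, chr2:223975112-224039319, minus strand) was at 12, 10.2, 17.7 and 18.3 FPKM in BPH-1, at 5.70, 4.89, 5.26 and 6.96 in DU145, and at 7.47, 8.48, 8.73 and 8.45 in PC3. The 3 ranges did not overlap, with BPH-1 above PC3 and PC3 above DU145. Means were 14.6 ± 4.06, 5.70 ± 0.90 and 8.28 ± 0.56 FPKM (SD, n = 4). It fell by 0.71 (SE 0.18) in PC3 and by 1.19 (SE 0.21) in DU145 against BPH-1 on the log2 scale (limma, adjusted P = 0.00642 and 8.26e-04), in all alternatives. PC3 was 0.48 ± 0.14 above DU145 (limma, adjusted P = 0.0201). That call was lost without PC3 replicate 2 or 3 (adjusted P = 0.0567 and 0.0575) and without DU145 replicates 1 and 2 (0.125) or 1 and 3 (0.0548).

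SERPINB2, the inhibitor 2 of plasminogen activators, was abundant and variable in BPH-1, low in PC3 and nearly without reads in DU145. SERPINB2 (ENSG00000197632, chr18:63871692-63903890, plus strand) was at 26.8, 43.4, 23.4 and 10.4 FPKM in BPH-1, a range of 4.17 times that was the widest of the 7 genes in that line. It was at 2.1, 1.24, 1.93 and 1.88 FPKM in PC3 and at 0.088, 0.088, 0.046 and 0.071 in DU145. No library of one line reached another line. The BPH-1 mean of 26 ± 13.6 FPKM was 14.5 times the PC3 mean of 1.79 ± 0.38 (SD, n = 4). DU145 held 19 reads over its 4 libraries against 6698 in BPH-1, a ratio of 350 with a 95% exact interval of 224 to 582 for counting error only. The log2(FPKM + 1) differences were -3.13 ± 0.35 (SE) for PC3 and -4.50 ± 0.34 for DU145 against BPH-1, and 1.37 ± 0.11 for PC3 against DU145 (limma, adjusted P = 4.11e-05, 4.05e-06 and 1.32e-05). Each held in every alternative that tested it. With the reported filter, SERPINB2 passed in the fits with DU145 only through the other line, so its direction there was fixed beforehand. The log2(FPKM + 1) scale understates the change of a gene near 0, and with log2(FPKM + 0.1) the DU145 difference from BPH-1 was -7.07. DU145 replicates 1 and 2, whose LYZ was as high as in BPH-1, had 6 SERPINB2 reads each. Replicates 3 and 4, with LYZ at 0, had 3 and 4. The part of leukocyte transcripts in the SERPINB2 levels was not tested.

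Maspin was high in BPH-1, lower in PC3 and nearly without reads in DU145. SERPINB5 (ENSG00000206075, chr18:63476761-63505085, plus strand) was at 42.5, 46.5, 45.1 and 52.4 FPKM in BPH-1, at 9.63, 15.5, 15.1 and 7.30 in PC3, and at 0.039, 0.078, 0.014 and 0.079 in DU145. The BPH-1 libraries were within 1.23 times of each other, the PC3 libraries within 2.13 times, and no ranges overlapped. BPH-1 averaged 46.6 ± 4.19 FPKM, rank 401 among protein-coding genes, which was 3.92 times the PC3 mean of 11.9 ± 4.07 (SD, n = 4). DU145 held 15 reads in all, between 1 and 6 a library, against 13572 in BPH-1, a ratio of 898 with a 95% exact interval of 544 to 1605 for counting error only. On the log2(FPKM + 1) scale SERPINB5 was -1.94 ± 0.22 (SE) in PC3 and -5.50 ± 0.14 in DU145 against BPH-1, and 3.56 ± 0.23 in PC3 against DU145 (limma, adjusted P = 4.06e-05, 2.30e-08 and 3.73e-06). All alternatives that tested it kept these calls. With the reported filter, SERPINB5 passed in the fits with DU145 only through the other line, so its direction there was fixed beforehand. KRT5 and KRT14 were likewise lower in both PCa lines than in BPH-1, but were at most 0.04 FPKM in PC3, where SERPINB5 was present, and KRT15 was not lower in PC3.

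SERPINB8 passed the test in no comparison. SERPINB8 (ENSG00000166401, chr18:63969925-64019779, plus strand) was at 1.92, 1.58, 1.69 and 2.08 FPKM in BPH-1, at 0.92, 2.26, 0.91 and 1.42 in DU145, and at 2.01, 2.05, 1.51 and 1.77 in PC3. DU145 spanned both other lines. The means were 1.82 ± 0.22, 1.38 ± 0.64 and 1.84 ± 0.25 FPKM (SD, n = 4). PC3 minus BPH-1 was 0.01 ± 0.11 (SE) on the log2 scale (limma, adjusted P = 0.953), was -0.17 after rescaling to equal sums, and was 0.34 with adjusted P = 0.0235 after dividing out the GC trend. DU145 replicates 1 and 3 were the lowest libraries, and without replicates 2 and 4 the DU145 difference from BPH-1 was -0.56 (limma, adjusted P = 0.00449), against 0.00040 without 1 and 3. Leaving out DU145 replicate 2 alone made the difference -0.44 against BPH-1 and 0.45 for PC3 minus DU145 (limma, adjusted P = 0.0239 and 0.0378).

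Of the 7 genes, 3 rose (PLAU, PLAT and PLAUR) and 3 fell (SERPINE2, SERPINB2 and SERPINB5) in PC3 against BPH-1, where 67.6% of all 16408 genes tested were called, 27.1% rising and 40.4% falling. In DU145 against BPH-1, 0 of 7 rose and 4 fell (PLAT and the same 3 serpins), where 62.7% of 17016 genes were called, 30.3% rising and 32.4% falling. PLAU, PLAUR and SERPINB8 were the members not called, and none of the 3 had an unadjusted P under 0.05 in limma or an exact permutation P under 0.05. In PC3 against DU145, 5 rose (PLAU, PLAT, SERPINE2, SERPINB2 and SERPINB5) and 0 fell, where 48.3% of 16420 genes were called, 20.0% rising and 28.3% falling. Groups of libraries did not overlap for 5, 4 and 4 members respectively, against 64.4%, 59.5% and 46.5% of all genes tested. A share of members near these backgrounds is not a result about the members, and the comparisons share libraries, since each line enters 2 of the 3. The median log2 difference over all genes was -0.13, -0.03 and -0.05 in these comparisons, and over the 7 members it was 0.01, -0.56 and 0.51. Rescaling to equal FPKM sums moved the median of all genes in PC3 against BPH-1 to -0.28 and its calls to 3436 up and 7924 down, from 4452 and 6633. The counts with DU145 include SERPINB2 and SERPINB5, whose direction there the filter had fixed beforehand. With 10 reads required in every library, neither was tested with DU145. Of the 5 members left, 2 fell in DU145 against BPH-1 and 3 rose in PC3 against DU145.

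**Figure D3:**
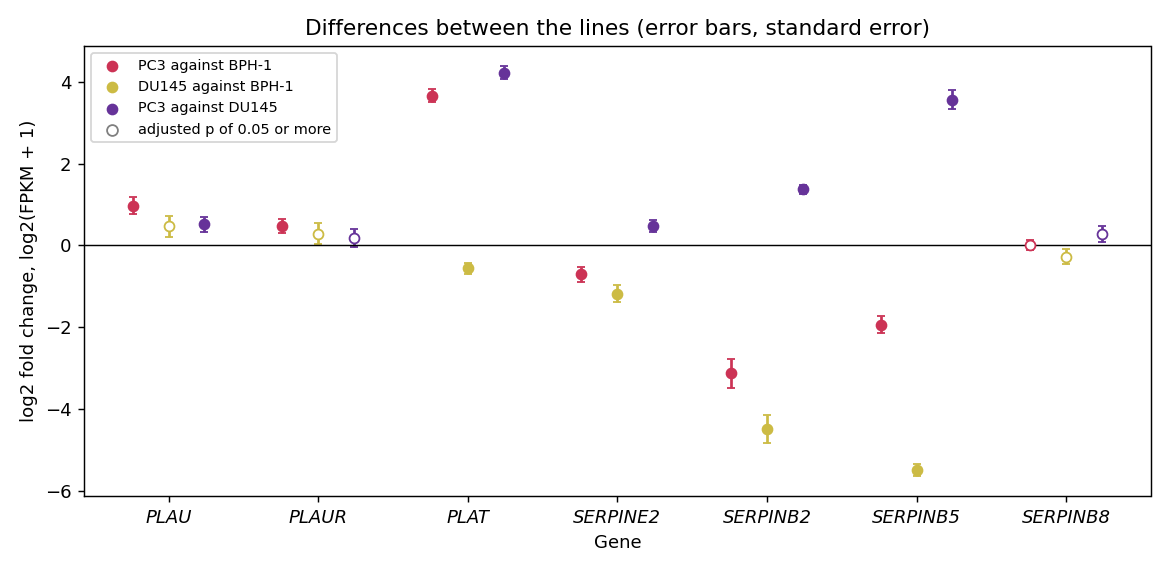
Log2 fold change on log2(FPKM + 1) with its standard error for the 7 genes in PC3 against BPH-1 (red), DU145 against BPH-1 (yellow) and PC3 against DU145 (purple), with open circles where the limma adjusted P was 0.05 or more. PLAT is positive only in the 2 PC3 comparisons, SERPINB2 and SERPINB5 are far below 0 against BPH-1, and SERPINB8 stays near 0.

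The balance of the genes within a library differed between the lines. PLAT made up 1.45% ± 0.10 of the summed PLAU and PLAT FPKM in BPH-1, 0.52% ± 0.09 in DU145 and 13.2% ± 2.85 in PC3 (SD, n = 4), with ranges that did not overlap. SERPINE2 and SERPINB2 together were between 28.8 and 53.6 FPKM in BPH-1, between 4.98 and 7.03 in DU145 and between 9.57 and 10.7 in PC3. Their ratio to the summed activators was 0.37 ± 0.07 in BPH-1, 0.040 ± 0.013 in DU145 and 0.041 ± 0.0045 in PC3. DU145 and PC3 overlapped in this ratio and both lay below every BPH-1 library. PLAU exceeded PLAUR by 12.3 to 33.6 times in BPH-1, 17.7 to 23.8 times in DU145 and 22.8 to 28.0 times in PC3, which overlapped. These are ratios of mRNA levels per length and carry no measure of protein or activity.

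Among 26 partners of the system (the zymogen, other inhibitors, receptors and surface proteases), 12 in BPH-1 and 13 in each PCa line averaged 1 FPKM or more, and PLG, the plasminogen gene, was at most 0.0070 FPKM in any library. Of 18 tested in PC3 against BPH-1, 6 rose and 6 fell, with a median log2 difference of 0.00. Of 19 in DU145 against BPH-1, 6 rose and 6 fell (median -0.05), and of 17 in PC3 against DU145, 2 rose and 5 fell (median -0.09). Over all genes tested, 67.6%, 62.7% and 48.3% were called in these comparisons. A share of partners near these backgrounds is not a result about the partners.
Matriptase (ST14), a surface protease that can activate pro-urokinase, averaged 38.9 ± 14.5 FPKM in BPH-1, 0.98 ± 0.29 in DU145 and 1.22 ± 0.21 in PC3, log2 differences of -4.28 and -4.10 (limma, adjusted P = 8.79e-07 and 5.72e-07). These were the deepest falls against BPH-1 among the partners tested.
Of the endocytic receptors, LRP1, MRC2 and VLDLR were called higher in both PCa lines than in BPH-1, and SORL1 (4.41 ± 0.85, 3.58 ± 2.26 and 2.83 ± 0.95 FPKM in BPH-1, DU145 and PC3) passed no test. LRP1, which internalises urokinase bound to its inhibitors, rose by 2.15 in PC3 and 2.04 in DU145 from 2.82 ± 1.63 FPKM, and MRC2, a collagen receptor that associates with the urokinase receptor, rose by 1.95 and 2.63 from 3.21 ± 1.42 FPKM (limma, adjusted P between 2.60e-05 and 1.97e-04). VLDLR, a related receptor, averaged 5.11 ± 2.13 FPKM in DU145 against 0.48 ± 0.17 in PC3 and 0.14 ± 0.12 in BPH-1 and rose by 2.36 in DU145 against BPH-1 on the log2 scale (limma, adjusted P = 2.83e-05). VLDLR was at most 0.30 FPKM in any BPH-1 library. It passed the filter against BPH-1 only through the other line, which largely fixed its direction beforehand.
The integrin chains differed by line. ITGAV averaged 19.2 ± 2.18 FPKM in BPH-1 and fell by 3.05 in PC3 and 2.75 in DU145 (limma, adjusted P = 1.54e-06 and 2.71e-05). ITGB3, its partner in the vitronectin receptor, averaged 29.3 ± 3.61 FPKM in DU145 against 0.45 ± 0.26 in BPH-1 and 0.43 ± 0.13 in PC3, a rise of 4.39 over BPH-1 (limma, adjusted P = 1.15e-07). ITGB1 spanned 16.5 to 124 FPKM over the DU145 libraries and passed no test.
Among genes of plasminogen-binding proteins, PLGRKT, a plasminogen receptor, averaged 4.81 ± 0.69, 3.34 ± 0.46 and 3.06 ± 0.30 FPKM in BPH-1, DU145 and PC3. It fell by 0.51 on the log2 scale in PC3 and by 0.42 in DU145 against BPH-1 (limma, adjusted P = 0.00438 and 0.0402). After dividing out the GC trend neither passed (adjusted P = 0.115 and 0.567), and the DU145 call was lost without any 1 BPH-1 library or without DU145 replicate 1 or 4 (between 0.0623 and 0.108). ANXA2 averaged 54.2 ± 3.69, 52.4 ± 8.42 and 66.1 ± 11.5 FPKM in BPH-1, DU145 and PC3 and passed no test. Its partner S100A10 rose by 1.15 in DU145 against BPH-1 (104.6 ± 62.3 against 40.9 ± 4.45 FPKM; limma, adjusted P = 0.0171, and 0.0774 after dividing out the GC trend). ENO1 averaged 345 ± 44.8 FPKM in BPH-1 and rose by 0.66 in PC3 (limma, adjusted P = 0.00396, and 0.176 after dividing out the GC trend). F12, which encodes coagulation factor XII, rose by 0.97 in PC3 to 2.84 ± 0.47 FPKM, and SERPINI1 (neuroserpin, an inhibitor of tissue plasminogen activator) rose by 0.72 to 1.18 ± 0.19 FPKM (limma, adjusted P = 2.19e-04 and 4.13e-05). FPR1 and FPR2, which were also called lower in PC3, are leukocyte receptors, and FPR1 is one of the 22 genes present in 6 libraries only. Both passed the filter against PC3 only through BPH-1, so their direction there was fixed beforehand.

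SERPINB5, SERPINB2 and SERPINB8 lie in a row of 10 clade B serpin genes on chromosome 18 (GENCODE 29, GRCh38), from SERPINB5 at one end to SERPINB8 at the other. In BPH-1, 7 of the 10 averaged 1 FPKM or more, against 4 in PC3 and 1 in DU145, SERPINB8. In DU145, 8 of the 10 averaged below 0.1 FPKM, and the summed mean level was 1.78 FPKM against 95.2 in BPH-1 and 28.5 in PC3. SERPINB13, SERPINB4 and SERPINB3, between the 2 members that were near 0 in DU145, averaged 4.25 ± 2.37, 3.12 ± 2.65 and 7.44 ± 7.0 FPKM in BPH-1 and were called lower in both PCa lines. All of these passed the filter in those fits only through BPH-1, so their direction there was fixed beforehand. SERPINB3 and SERPINB4 are near-identical copies whose reads may have been split between them. SERPINB7 was higher in PC3 (12.4 ± 3.29 FPKM) than in BPH-1 (5.71 ± 4.54) and DU145 (0.26 ± 0.18), a rise of 1.16 over BPH-1 (limma, adjusted P = 0.0214) that was lost in 7 alternatives, among them leaving out BPH-1 replicate 1, 3 or 4 or PC3 replicate 2 or 3 (adjusted P between 0.0529 and 0.0618).

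**Figure D4:**
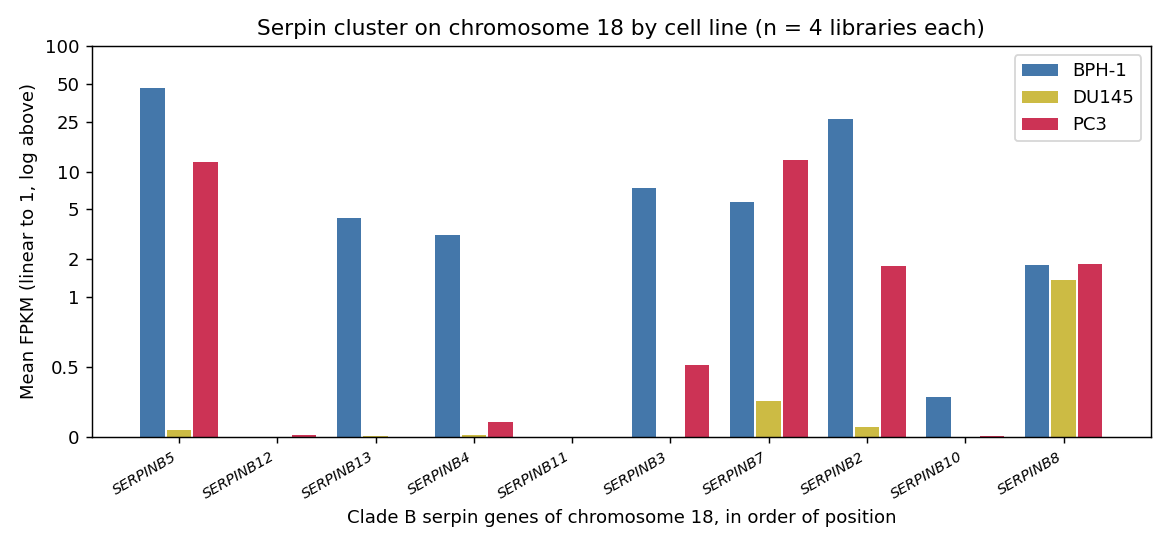
Mean FPKM over 4 libraries of the 10 clade B serpin genes of chromosome 18 in order of position, by line (axis linear up to 1 and logarithmic above). BPH-1 shows 7 genes at 1 FPKM or more, PC3 shows SERPINB5, SERPINB7, SERPINB2 and SERPINB8, and DU145 shows SERPINB8 alone.

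Of the 3 clade B genes of chromosome 6, SERPINB6 and SERPINB1 were called higher in both PCa lines than in BPH-1 and SERPINB9 in DU145 alone. SERPINB6 rose by 1.64 in PC3 and 1.69 in DU145, from 8.68 ± 2.54 FPKM in BPH-1 to 28.5 ± 2.34 and 29.97 ± 6.80 (limma, adjusted P = 3.53e-05 and 1.51e-04). SERPINB9, the granzyme B inhibitor, averaged 13.2 ± 4.98 FPKM in DU145 against 0.57 ± 0.43 in BPH-1 and 0.47 ± 0.15 in PC3, a rise of 3.13 over BPH-1 (limma, adjusted P = 1.38e-05). SERPINB1 rose by 0.69 in PC3 and 0.71 in DU145 (limma, adjusted P = 0.0389 and 0.0180), and after rescaling to equal sums both calls were lost (0.146 and 0.0836). They were also lost without BPH-1 replicate 1 or 3 (adjusted P between 0.0554 and 0.106), and in PC3 without BPH-1 replicate 4 or PC3 replicate 2 or 3 (between 0.0588 and 0.104). Outside clade B, SERPIND1 (heparin cofactor II) was at 6.06 ± 1.49 FPKM in PC3, at most 0.14 in DU145 and listed at 0 in BPH-1. SERPINH1, the collagen chaperone HSP47, fell by 1.14 in PC3 against BPH-1 (6.99 ± 1.40 against 16.9 ± 4.52 FPKM; limma, adjusted P = 9.16e-04). Over the list of 18 other serpins, 12 were tested in PC3 against BPH-1, of which 4 rose and 7 fell (median log2 difference -0.57). Of 12 in DU145 against BPH-1, 5 rose and 5 fell (median 0.27), and of 9 in PC3 against DU145, 2 rose and 5 fell (median -0.57). The shares of all genes tested that were called in these comparisons were 67.6%, 62.7% and 48.3%.

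Among 12485 protein-coding genes tested in all comparisons, the genes most like each member were those with the smallest root mean square difference over the 12 libraries, after each gene's log2(FPKM + 1) was centred on its mean. This measure is a description over libraries of 3 lines. SIX2, FST and SHISA2 were closest to PLAT (0.29, 0.33 and 0.34), and FST averaged 37.0 FPKM in PC3, 1.74 in BPH-1 and 0.27 in DU145. EPCAM, HMGB2 and S100A2 were closest to SERPINB5 (0.46, 0.48 and 0.53), and LAD1 and CD24 were among the closest to SERPINB2 (0.41 and 0.43). PET100, ACTN1 and PDHB were closest to PLAU (0.21, 0.22 and 0.22), ATG2A, CASP9 and ESRRA to PLAUR (0.13, 0.15 and 0.15), ISL1, FAM217B and OVOL2 to SERPINE2 (0.17, 0.18 and 0.18), and TPMT, RBM48 and PSMC2 to SERPINB8 (0.11, 0.12 and 0.13). For comparison, the standard deviation of the member itself on this scale was between 0.24 for SERPINB8 and 2.29 for SERPINB5.

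Some members share exon bases with a neighbour, and the sources used here do not say whether reads were counted by strand. C10orf55 lies opposite PLAU with 916 shared exon bases and averaged at most 1.08 FPKM in a line. SERPINB10 shares 547 exon bases with SERPINB2 and averaged 0.28 FPKM in BPH-1. HMSD and AC009802.1 share 370 and 257 exon bases with SERPINB8, and AC009802.1, on the opposite strand, averaged 0.87 FPKM in DU145 against 1.38 for SERPINB8, so the level of SERPINB8 is uncertain there.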

How the data were processed

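RNA-seq of 4 libraries each of BPH-1, DU145 and PC3 was analysed from 1 deposited table of 58302 genes, whose columns were matched to samples by name. The authors deposited FPKM, a unit read from the values because the header names none. The submitters' processing notes name CASAVA 1.8, HISAT2 2.1.0, edgeR, GRCh38 and hg38 without their roles, and a count model was not used here. Gene annotation was GENCODE 29, and 263 genes without a length in it were not tested.

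Whole reads were recovered from the steps of the FPKM. With a gene length that sums all distinct exons, between 92.3% and 93.7% of low protein-coding values were whole within 0.02 reads, against 16.9% to 20.2% with merged exons. The depth was between 12950665 and 16309559 reads a library.

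Models were fitted to log2(FPKM + 1) of the 2 lines compared with limma 3.58.1 in R 4.3.3 (trend option), for genes with 10 reads at the median depth in 4 libraries and 15 reads in all. P values were adjusted by the Benjamini-Hochberg method over all genes tested, and called under 0.05. Exact permutation tests of mean FPKM were two-sided, and a read ratio has a 95% exact binomial interval. Error is given as SD or SE as stated. The fits were tested on simulated data. Python 3.11.15, numpy 2.4.6, pandas 2.3.3, scipy 1.17.1 and matplotlib 3.10.9 were used. Sequences are from RefSeq.

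Alternatives were a pseudocount of 0.1, no filter, 10 reads in every library, a replicate block, 1 fit over all lines, equal FPKM sums, median-of-ratios scaling, voom on the recovered reads, each library's GC trend divided out (which also removes a real difference that follows GC) and leaving out each library. Leaving out pairs of DU145 libraries was added after the data were seen. All 7 members are described, with list genes chosen by the largest called changes or a mean of at least 10 FPKM in a line. The members and lists were chosen with earlier results of these data known. LYZ, PTPRC, FCGR3B, MNDA, FPR1, SERPINB4, SERPINB10, PLGRKT, SORL1 and FPR2 were named after their values were seen. Results of some of the genes tested are not reported here.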

Additional observations from a re-analysis of the deposited data

Results flagged for a closer look

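Among 87 sets of 4 libraries of a line examined for a library far from the others, of which chance gives about 5%, 2 stood out. SERPINB7 was at 12.5 FPKM in BPH-1 replicate 2 while the other BPH-1 libraries had 2.76 to 4.08. The FPKM of all genes summed to 302456 in DU145 replicate 4 against 289756 to 291753 in the other DU145 libraries.

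PC3 and DU145 differed in the test of their difference for 5 members, where 48.3% of all 16420 genes tested were called. The log2 fold change of PC3 against DU145 was 0.51 for PLAU, 4.22 for PLAT, 0.48 for SERPINE2, 1.37 for SERPINB2 and 3.56 for SERPINB5. Among the partners it was 0.90 for F12, 1.04 for SERPINI1, -4.40 for ITGB3, -0.68 for MRC2, -1.18 for S100A10 and -1.97 for VLDLR. Among the other serpins it was 3.39 for SERPINB7, 2.72 for SERPIND1, -3.20 for SERPINB9 and -1.68 for SERPINH1. SERPINB2, SERPINB5, SERPINI1, SERPINB7 and SERPIND1 passed the filter in this comparison only through PC3, so their direction was fixed beforehand. MRC2 lost its call without DU145 replicate 1 or PC3 replicate 1 (limma, adjusted P = 0.0654 and 0.0641), and S100A10 without DU145 replicate 4 or PC3 replicate 1, 2 or 3 (between 0.0548 and 0.0737). The calls of PLAU and SERPINE2 also depended on single libraries, as given with their values.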

How the results depend on the processing

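Leaving out each library in turn gave 5 to 6 members called in PC3 against BPH-1, 4 to 5 in DU145 against BPH-1 and 3 to 5 in PC3 against DU145. Of these, leaving out PC3 replicate 2 gave 3 calls. Over the same fits the partners called were 12 to 14, 10 to 13 and 5 to 7, the other serpins 9 to 11, 9 to 11 and 7 to 8, and all genes 10601 to 11320, 9617 to 11458 and 7019 to 8239. A fold limit of 1 on the log2 scale left 3 members in each comparison, 6 partners in PC3 against BPH-1 and 4 in PC3 against DU145, 7 and 6 other serpins against BPH-1, and 4429, 4894 and 3177 genes. The filter of 10 reads in every library removed SERPINB2 and SERPINB5 from the fits with DU145, leaving 2 members called in DU145 against BPH-1 and 3 in PC3 against DU145, and left 5, 4 and 3 other serpins and 5268 genes in PC3 against DU145.

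Same-numbered libraries did not correlate above 0.1 in every pair of any comparison (between -0.65 and 0.51), and the reported fits used no pairing. PC3 replicates 1 and 4 correlated at 0.55 and 0.70 with a DU145 library of another number. Whether libraries of different lines shared a batch was not tested. With the replicate block, members called in PC3 against DU145 fell to 3, with PLAU at adjusted P = 0.104 and SERPINE2 at 0.078. Without DU145 replicates 1 and 2, members called in PC3 against DU145 were also 3.

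The direction turned in 10 fits, in which the reported value was itself not called. PLAUR in DU145 against BPH-1 was -0.11 with the GC trend divided out and -0.085 without DU145 replicates 1 and 3, and in PC3 against DU145 it was -0.19 without replicates 2 and 4. SERPINB8 in PC3 against BPH-1 was -0.17 with equal FPKM sums and between -0.032 and 0.065 in the fits that left out 1 library, below 0 in 4 of them. In DU145 against BPH-1 it was 0.042 with the GC trend divided out and 0.00040 without DU145 replicates 1 and 3. The cause was not tested. With fewer than 7 reads a library, the levels of SERPINB2 and SERPINB5 in DU145 are known only within their counting intervals.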
